A study of Mus musculus with 6 samples.

Results

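The cyclic nucleotide phosphodiesterases and the adenylyl cyclases were followed here across the exit of mouse stem cells from naive pluripotency. The members were taken by gene symbol: 24 phosphodiesterase genes (Pde1a to Pde11a with the small Pde6 subunits) and 10 adenylyl cyclase genes (Adcy1 to Adcy10), 34 of the 51826 gene rows in the table. The set was selected on the CPM values of Pde4b, whose rise was among the largest in this same comparison, so Pde4b is described without a test and left out of the counts of called genes. The other members were taken by symbol alone, whatever their values.

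Total RNA of the mouse line V6.5 was sequenced in 6 libraries: embryonic stem cells (ESC, n = 3) and epiblast-like cells (EpiLC, n = 3). Both groups were wildtype and were grown in Knockout DMEM containing 15% fetal bovine serum. To this, the medium of the ESC added LIF (leukaemia inhibitory factor) and 2i, a pair of inhibitors of GSK3 and MEK that hold the naive state, and the EpiLC were cells at day 3 without LIF and 2i. All cells came from a single line, and nothing in the labels says that the libraries came from separate cultures, so the p-values measure the spread between these libraries, which may be technical.

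Library totals ran from 9710410 to 22879812 counts. ESC replicate 3 stood apart: its chi-square over all genes, divided by the degrees of freedom, was 25.7 and 26.1 against ESC replicates 1 and 2, where those 2 libraries gave 2.58 against each other and the EpiLC pairs 2.17 to 4.11. The 7 naive pluripotency markers (Esrrb, Klf4 and others) were all lower in EpiLC, at summed levels of 2407 to 2580 CPM (counts scaled to the same library total) in ESC and 44.0 to 50.7 CPM in EpiLC, and the 5 formative epiblast markers (Fgf5, Otx2 and others) were all higher. Fibroblast markers summed to 3.48 to 4.24 CPM in ESC and 13.1 to 17.0 CPM in EpiLC (3 of 7 called higher, with Dcn and Postn at 0 in the ESC libraries and Lum at 0 in the EpiLC libraries). Neural markers summed to 68.9 to 69.8 CPM in ESC and 92.3 to 115 CPM in EpiLC (4 of 6 called higher). Tubb3, the largest neural marker in each library, did not rise (48.95 to 53.03 CPM in ESC, 36.13 to 49.10 CPM in EpiLC). Primitive endoderm markers summed to 4.57 to 10.6 CPM in ESC and 16.7 to 19.2 CPM in EpiLC (2 of 7 called higher, 1 lower). Dab2 held most of that sum in EpiLC, going from 0.104, 0.315 and 1.307 CPM in ESC to 11.04, 9.751 and 9.196 CPM. Gata4 was higher in EpiLC too, but Sox17 fell from 1.193, 1.172 and 2.003 CPM to 0, 0 and 0.179 CPM. Neither sum stands for its whole list. No neural or primitive endoderm marker was at 0 in all libraries. The part of such cells in the differences below was not tested.

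Cyclic AMP (cAMP) and cyclic GMP (cGMP) are small second messengers. Adenylyl cyclases make cAMP from ATP, most of them at the plasma membrane under the control of G proteins, and guanylyl cyclases make cGMP. Phosphodiesterases break the cyclic bond and so end the signal: the PDE4, PDE7 and PDE8 families act on cAMP, PDE5, PDE6 and PDE9 on cGMP, and PDE1, PDE2, PDE3, PDE10 and PDE11 on both. The main receivers of cAMP are protein kinase A, whose targets include the transcription factor CREB, and the exchange factors known as EPAC.

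RefSeq start sites on GRCm38.p6 were looked up for the members. The list is partial, so its entries for a gene need not be all of that gene's starts. A window of 100 bases upstream of a start was found for 25 of the 34 members, 49 windows in all, and Adcy6, Adcy8, Pde3a, Pde3b, Pde6a, Pde6c, Pde6g, Pde7a and Pde9a had no entry. Pde4b, the gene with the largest rise, has 4 such windows spread along chromosome 4, and Pde8a, the gene with the largest fall, has 1 on chromosome 7. The Pde4b and Pde8a windows that lie outside annotated exons are shown 5′ to 3′, because the counts per gene cannot tell which Pde4b start was in use. Adcy7, a cyclase gene that rose, has 3 windows on chromosome 8, and the 1 of them that holds the core named next is shown beside them. Capitals mark TGACG or its reverse complement, the core of the cAMP response element (CRE) that CREB is known to bind.
Pde4b, chr4:102569960-102570059, plus strand: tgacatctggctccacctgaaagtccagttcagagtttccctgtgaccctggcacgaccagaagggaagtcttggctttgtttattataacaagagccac
Pde4b, chr4:102587458-102587557, plus strand: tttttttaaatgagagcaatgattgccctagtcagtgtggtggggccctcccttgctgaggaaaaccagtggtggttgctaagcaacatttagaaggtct
Pde8a, chr7:81213165-81213264, plus strand: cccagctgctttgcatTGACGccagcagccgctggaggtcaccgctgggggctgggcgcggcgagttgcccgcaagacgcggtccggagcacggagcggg
Adcy7, chr8:88282892-88282991, plus strand: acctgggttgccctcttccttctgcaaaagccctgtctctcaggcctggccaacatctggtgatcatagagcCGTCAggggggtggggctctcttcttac

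The CRE core, searched on both strands, was present in 6 of the 49 member windows (12.2%) and in 10.5% of all 32851 windows of that length. Those 6 windows belonged to 6 genes whose values went different ways: Pde4b (in the window at chr4:102421455-102421554, which overlaps an annotated exon) and Adcy7 were higher in EpiLC, Pde8a was lower, Adcy9 and Pde4a were not called, and Pde6h was hardly counted. The full palindrome TGACGTCA, which contains the core, was in none of the 49 windows and in 1.15% of all windows. AACCNGTT, the motif of grainyhead-like factors such as GRHL2, which the series' title names, was in none of them and in 0.63% of all windows.

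Most of the members that could be tested were higher in EpiLC. Besides Pde4b, 23 members had enough counts for edgeR's quasi-likelihood test, and 15 of them were called higher in EpiLC at an adjusted p under 0.05, where 32.0% of all 14996 tested genes were. In the other direction 2 members were called lower, where 32.6% of all tested genes were, and 6 were not called. In either direction that made 17 of 23, where 64.6% of all tested genes were called. Differences of 2-fold or more were called higher in 13 members and lower in 2, where 17.0% and 12.4% of all tested genes were. The 3 EpiLC libraries lay above the 3 ESC libraries for 15 of the 23, where 34.9% of all tested genes did so, and below them for 2, where 35.3% did so. The median log2 fold change (EpiLC minus ESC) was 1.09 over the 23 members and 0.01 over all tested genes. Since the set was chosen with this comparison known, nothing is read from these counts. Pde4b, Pde1c, Pde3a, Pde11a and Adcy8 passed the filter on low counts through the EpiLC libraries alone, so they could only be higher. In bulk RNA, more cells of a type and more RNA per cell cannot be told apart.

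**Figure D1:**
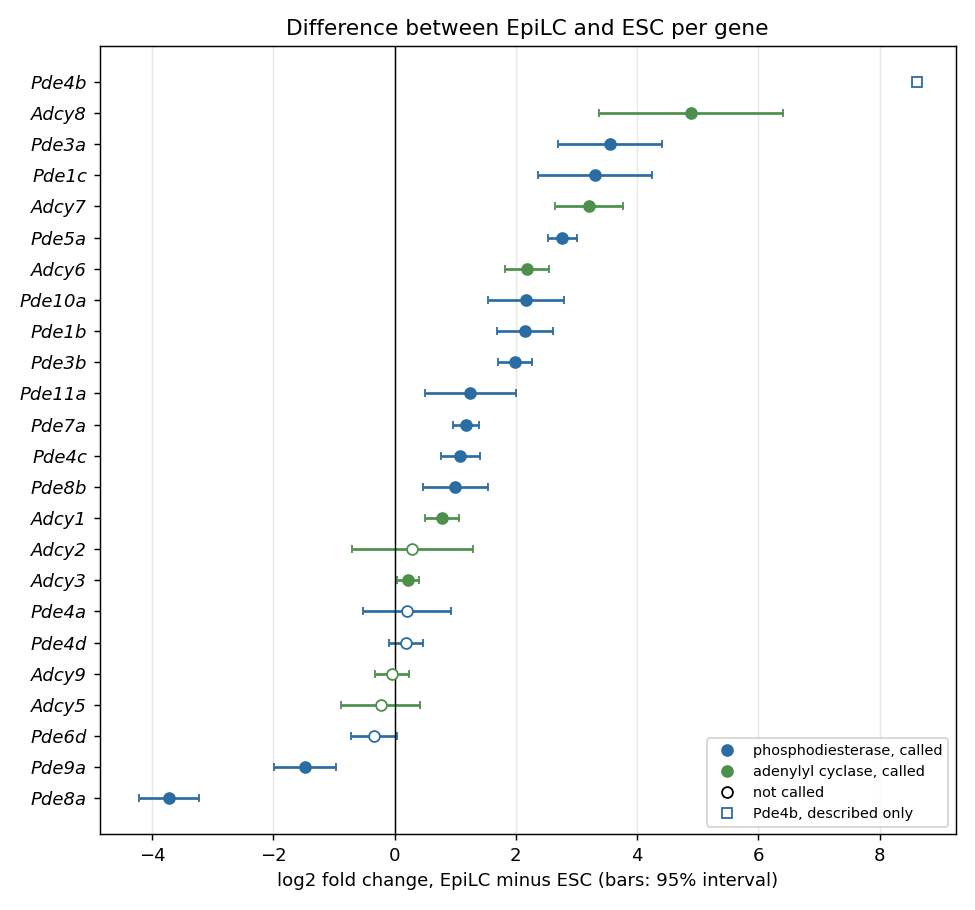
Log2 fold change (EpiLC minus ESC, horizontal axis) of the 24 tested genes, with 95% intervals derived from the edgeR test as bars, filled points for called genes and an open square without a bar for Pde4b, which was not tested here. Pde8a and Pde9a lie to the left of 0 with their whole intervals, and the whole intervals of 15 genes lie to the right of it.

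The PDE4 genes, which encode cAMP-specific enzymes that are the targets of rolipram, ranged from the largest rise of the set to no call. Pde4b (ENSMUSG00000028525, chromosome 4, 102087543 to 102607259, all positions being on GRCm38) was measured at 0.052, 0.045 and 0 CPM in ESC replicates 1 to 3 and at 18.4, 18.0 and 18.0 CPM in EpiLC replicates 1 to 3. It was nearly absent from each ESC library and almost level among the EpiLC libraries. That is 2 counts in ESC against 595 in EpiLC, a ratio per scaled total of 479. The ratio rests on only 2 ESC counts and is given without an interval. These are the values that chose the set.

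Its 3 paralogs were already present in ESC. Pde4c (ENSMUSG00000031842, chromosome 8, 70723720 to 70751186) stood at 4.15, 4.01 and 4.62 CPM in ESC and at 8.73, 9.49 and 8.66 CPM in EpiLC, with no overlap. It was 2.12-fold higher (log2 fold change 1.09 with SE 0.14, edgeR adjusted p = 0.000194). Pde4d (chromosome 13, 108449948 to 109953461) lay at 16.2, 17.7 and 14.2 CPM in ESC and 16.5, 19.5 and 19.3 CPM in EpiLC. The groups overlapped and Pde4d was not called (log2 fold change 0.19, 95% interval -0.09 to 0.47). Pde4a (chromosome 9, 21165714 to 21213248) was at 3.79, 4.64 and 9.15 CPM in ESC and 7.03, 5.82 and 6.43 CPM in EpiLC. ESC replicate 3 held its highest value and lay above all EpiLC libraries, and Pde4a was not called (log2 fold change 0.21, interval -0.52 to 0.93). Without that library its log2 fold change was 0.58 (edgeR adjusted p = 0.00504, from 0.00504 to 0.912 over the 13 alternatives).

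Of the PDE7 and PDE8 genes, which encode high-affinity cAMP-specific enzymes, Pde7a rose and Pde8a fell. Pde7a (ENSMUSG00000069094, chromosome 3, 19223108 to 19311322) had the highest CPM of the set in both states, with 57.4, 60.6 and 72.3 CPM in ESC and 148, 138 and 143 CPM in EpiLC. It rose 2.26-fold (log2 fold change 1.17 with SE 0.09, edgeR adjusted p = 1.44e-05). Pde8a (ENSMUSG00000025584, chromosome 7, 81213596 to 81334533), which encodes an enzyme that resists the broad inhibitor IBMX, stood at 23.0, 27.7 and 34.8 CPM in ESC and at 2.41, 2.14 and 1.87 CPM in EpiLC. Each EpiLC library was far below each ESC library, a 13.2-fold fall (log2 fold change -3.73, SE 0.21, adjusted p = 2.68e-06). Its paralog Pde8b (chromosome 13, 95024454 to 95250336) went the other way at a low level, from 1.87, 2.03 and 1.22 CPM in ESC to 3.61, 4.02 and 3.04 CPM in EpiLC (log2 fold change 1.0, SE 0.23, adjusted p = 0.00537). Pde7b had 1 count in the ESC libraries together and 1 in the EpiLC libraries.

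Among the cGMP-specific genes, Pde5a rose and Pde9a fell. Pde5a (ENSMUSG00000053965, chromosome 3, 122728947 to 122859374), the gene of the enzyme that sildenafil inhibits, stood at 8.20, 8.61 and 7.49 CPM in ESC and at 61.1, 53.2 and 52.1 CPM in EpiLC. The groups lay far apart, a 6.80-fold rise (log2 fold change 2.77 with SE 0.10, edgeR adjusted p = 3.44e-07). Pde9a (ENSMUSG00000041119, chromosome 17, 31386210 to 31476310), whose product has a very high affinity for cGMP, was at 17.6, 15.5 and 10.1 CPM in ESC and 5.02, 5.56 and 5.18 CPM in EpiLC. It fell 2.78-fold (log2 fold change -1.48, SE 0.22, adjusted p = 0.000490), and ESC replicate 3 was the closest of the ESC libraries to the EpiLC level.

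The catalytic PDE6 genes Pde6a, Pde6b and Pde6c, known for ending the light response in photoreceptors, held at most 5 counts in any library and were not tested. The inhibitory subunit genes Pde6g and Pde6h held at most 1 count. Of 8 photoreceptor markers, Nrl was at 0 in all 6 libraries, and Gnat2 was the 1 that could be tested. Pde6d (chromosome 1, 86542994 to 86582629), whose product also carries prenylated proteins to membranes outside the eye, stood at 12.9, 17.4 and 18.5 CPM in ESC and 13.8, 13.3 and 11.2 CPM in EpiLC. The groups overlapped and it was not called (log2 fold change -0.34, interval -0.71 to 0.03). Without ESC replicate 1 it was called lower (log2 fold change -0.50, edgeR adjusted p = 0.0142, from 0.0142 to 0.268 over the alternatives).

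Of the 6 tested genes of enzymes that act on both nucleotides, Pde1c, Pde3a and Pde11a had passed the filter through EpiLC alone and could only be higher. The other 3, Pde1b, Pde3b and Pde10a, could have gone either way and were called higher too, where 32.0% of all tested genes were. Pde1b (ENSMUSG00000022489, chromosome 15, 103503034 to 103530052), which encodes a phosphodiesterase switched on by calcium and calmodulin, stood at 11.7, 14.4 and 22.2 CPM in ESC and at 70.7, 71.3 and 67.6 CPM in EpiLC. It rose 4.43-fold (log2 fold change 2.15 with SE 0.20, edgeR adjusted p = 3.58e-05), and the EpiLC libraries were the more even group. Pde3b (ENSMUSG00000030671, chromosome 7, 114415281 to 114539251), a gene of the cGMP-inhibited PDE3 family that acts below the insulin receptor in fat cells, was at 18.1, 20.997 and 14.7 CPM in ESC and 72.0, 74.0 and 68.8 CPM in EpiLC. Its rise was 3.96-fold (log2 fold change 1.98, SE 0.12, adjusted p = 3.75e-06), with no overlap.

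Pde10a (chromosome 17, 8525372 to 8986648), best known from the striatum, stood at 2.18, 1.98 and 3.83 CPM in ESC and at 14.6, 10.01 and 9.64 CPM in EpiLC, a 4.50-fold rise (adjusted p = 0.000188 by edgeR). The other 3 were below 1 CPM in each ESC library, where 3 counts, the limit that a count of 0 allows, amount to 0.156, 0.135 and 0.261 CPM in replicates 1 to 3. Pde3a (chromosome 6, 141249269 to 141507448) had 0.415, 0.090 and 0.436 CPM in ESC and 3.71, 3.59 and 3.04 CPM in EpiLC (log2 fold change 3.56, SE 0.37, adjusted p = 6.95e-05). Pde1c (chromosome 6, 56069804 to 56569103) had 0.259, 0.406 and 0.087 CPM in ESC and 3.91, 2.22 and 2.59 CPM in EpiLC (log2 fold change 3.31, SE 0.41, adjusted p = 0.000173). Both genes were above their ESC values in each EpiLC library, and both stayed below 4 CPM. Pde11a (chromosome 2, 75989141 to 76338774) had 0.778, 0.541 and 0.348 CPM in ESC and 1.20, 1.28 and 1.70 CPM in EpiLC (log2 fold change 1.25, SE 0.33, adjusted p = 0.00966). Its call was lost without EpiLC replicate 3 (adjusted p = 0.0501, from 0.00701 to 0.0501 over the alternatives). Pde1a had 0 counts in ESC and 5 in EpiLC. Pde2a had 0 and 1, and 64.3% of its exon length is shared with the gene model Gm45837 on the same strand, which was itself at 0.089 CPM or less in each library. How reads shared by both gene models were counted is not given, so the level of Pde2a cannot be judged from these counts.

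**Figure D2:**
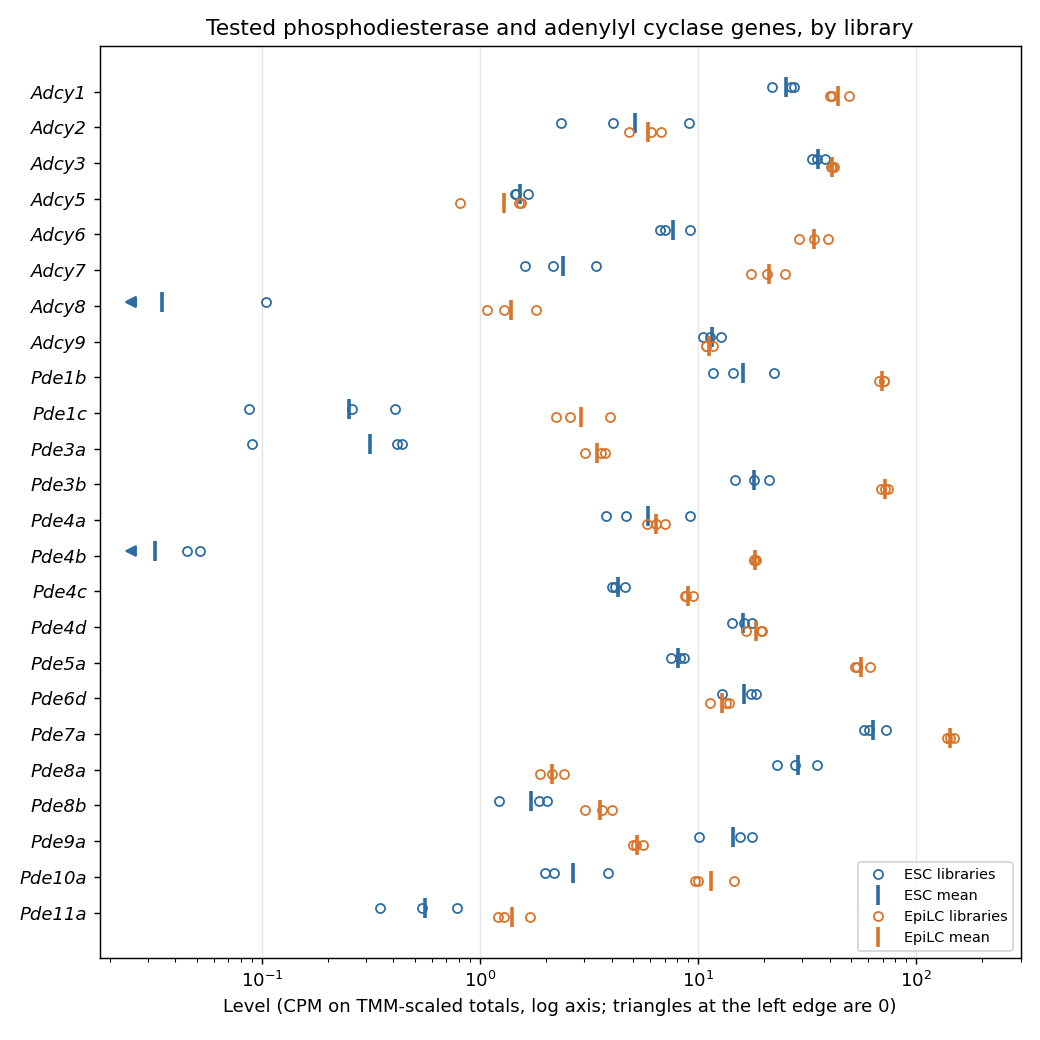
Level of each of the 24 tested genes in each library (circles, CPM on TMM-scaled totals, log axis), with group means as vertical marks and triangles at the left edge for values of 0. ESC values are blue and EpiLC values orange. Pde4b and Adcy8 are nearly absent in ESC, and Pde7a is the highest gene in both states at 57.4 to 72.3 and 138 to 148 CPM.

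Of 8 tested adenylyl cyclases, 5 were called higher and 0 lower in EpiLC by edgeR, where 32.0% and 32.6% of all tested genes were, and 0 were lower also at an unadjusted p under 0.05, by DESeq2 and by limma-voom. Of the 5, Adcy8 could only be higher by the route it passed the filter, and the call of Adcy3 was often lost, in 8 of 13 alternatives. Adcy6 (ENSMUSG00000022994, chromosome 15, 98589973 to 98610076), which encodes a form that calcium inhibits, stood at 6.69, 7.03 and 9.15 CPM in ESC and at 39.1, 34.0 and 29.0 CPM in EpiLC. The groups did not overlap, and the rise was 4.53-fold (log2 fold change 2.18, SE 0.16, adjusted p = 8.60e-06). Adcy7 (ENSMUSG00000031659, chromosome 8, 88272403 to 88329962), which encodes a form that G protein beta-gamma subunits stimulate, rose 9.25-fold from 1.61, 2.16 and 3.40 CPM to 17.5, 20.6 and 24.9 CPM (log2 fold change 3.21, SE 0.24, adjusted p = 1.12e-05).

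The 3 genes of calcium-stimulated cyclases, best known from neurons and olfaction, were called higher, where 32.0% of all tested genes were. Their differences were of very different size, and Adcy8 could only be higher by the route it passed the filter. Adcy1 (chromosome 11, 7063489 to 7178506) stood at 26.6, 27.4 and 21.7 CPM in ESC and at 49.3, 39.9 and 41.2 CPM in EpiLC (log2 fold change 0.78 with SE 0.12, edgeR adjusted p = 0.000628). Adcy8 (chromosome 15, 64697084 to 64922296) stood at 0.104, 0 and 0 CPM in ESC and at 1.81, 1.28 and 1.07 CPM in EpiLC. Its 2 ESC counts lay in replicate 1, against 45 counts over the EpiLC libraries. The ratio per scaled total was 36.3 (95% interval 9.47 to 309, Clopper-Pearson, counting error only). The fit gave a log2 fold change of 4.89 (adjusted p = 0.000102), which became 7.19 when ESC replicate 1 was left out and 4.20 when ESC replicate 2 was. Adcy3 (chromosome 12, 4133103 to 4213525) lay at 33.1, 34.8 and 37.9 CPM in ESC and 40.6, 40.8 and 41.8 CPM in EpiLC. The groups did not overlap, but the difference was small (log2 fold change 0.22, SE 0.08, adjusted p = 0.0376) and was called in 5 of the 13 alternatives (adjusted p from 0.00226 to 0.251). It was not called when any single library other than ESC replicate 3 was left out. Adcy3 shares 22.1% of its exon length with Cenpo on the opposite strand, which stood at means of 39.3 and 37.5 CPM, and reads of the 2 genes may not be told apart because the strand setting of the counting is not given.

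The other cyclases differed less between states than among libraries of a state. Adcy9 (chromosome 16, 4287529 to 4420498), the form least sensitive to forskolin, lay at 10.5, 11.3 and 12.7 CPM in ESC and 11.6, 10.9 and 10.9 CPM in EpiLC (log2 fold change -0.04, interval -0.32 to 0.24). Adcy5 (chromosome 16, 35154877 to 35305738) lay at 1.45, 1.44 and 1.66 CPM in ESC and 1.51, 1.54 and 0.804 CPM in EpiLC (interval -0.87 to 0.42). Adcy2 (chromosome 13, 68620043 to 68999541) varied most within ESC, at 2.33, 4.06 and 9.06 CPM, against 6.72, 6.07 and 4.82 CPM in EpiLC. It was not called with all libraries (log2 fold change 0.30, interval -0.71 to 1.30) and was called higher without ESC replicate 3 (log2 fold change 0.83, edgeR adjusted p = 0.00326, from 0.00326 to 0.852 over the alternatives). Adcy4 and Adcy10, the soluble cyclase that bicarbonate stimulates, held at most 7 counts in any library and were not tested.

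Levels can be compared between genes only per length, so CPM was divided by the length of each gene's merged exons in kb. On that scale the phosphodiesterases of both states differed in make-up. In ESC the leading members were Pde7a (8.19 ± 1.01 CPM per kb, SD, n = 3), Pde6d (7.46 ± 1.37), Pde8a (7.05 ± 1.48), Adcy3 (5.64 ± 0.39) and Pde9a (4.07 ± 1.09). The levels of Pde7a, Pde6d and Pde8a differed by less than the largest of their SDs. In EpiLC the leading members were Pde7a (18.4 ± 0.70 CPM per kb), Pde1b (12.9 ± 0.37), Pde3b (7.86 ± 0.29), Adcy3 (6.57 ± 0.10), Pde6d (5.87 ± 0.62) and Pde5a (5.64 ± 0.50), of which Pde6d and Pde5a differed by less than their SDs. Pde8a went from rank 3 to rank 19 of the 34 members and Pde4b from rank 30 to rank 11. The level of Adcy3 may be off, because its reads and those of Cenpo may not be told apart.

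The summed level of the 21 phosphodiesterase genes without the small Pde6 subunits was 26.4, 28.4 and 31.1 CPM per kb in ESC and 56.5, 54.6 and 53.4 CPM per kb in EpiLC. The cAMP-specific genes made up 60.7%, 62.7% and 68.6% of that sum in ESC and 46.0%, 45.3% and 47.0% in EpiLC. The genes for both nucleotides went from 17.1%, 18.5% and 19.7% to 40.5%, 41.7% and 40.3%. Neither share overlapped between the states. The cGMP-specific share was 22.3%, 18.8% and 11.7% in ESC and 13.5%, 12.9% and 12.7% in EpiLC, so it overlapped, although its main gene was Pde9a in ESC (14.5% ± 4.90 of the whole sum) and Pde5a in EpiLC (10.3% ± 0.63). Pde8a alone fell from 24.4% ± 3.08 of the sum to 0.96% ± 0.09, while Pde1b went from 10.3% ± 2.63 to 23.6% ± 0.54. The sum and the shares include Pde4b, whose values chose the set. For all its rise, Pde4b reached 3.13% ± 0.06 in EpiLC. These shares are a description with no test, and transcripts with fewer exons than the merged model would be given too low a level.

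The summed level of the 10 cyclase genes was 11.5, 12.5 and 14.6 CPM per kb in ESC and 23.2, 21.8 and 21.6 CPM per kb in EpiLC. Adcy3 held the largest share in each library, at 44.1% ± 2.32 in ESC and 29.6% ± 1.55 in EpiLC. Its share, and through the sum those of the other cyclases, may be off, because reads of Adcy3 and Cenpo may not be told apart. Adcy6 went from 8.71% ± 0.47 to 22.6% ± 2.53 and Adcy7 from 2.70% ± 0.70 to 14.1% ± 3.00, while Adcy9 went from 17.3% ± 0.46 to 9.65% ± 0.08 with nearly the same CPM.

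**Figure D3:**
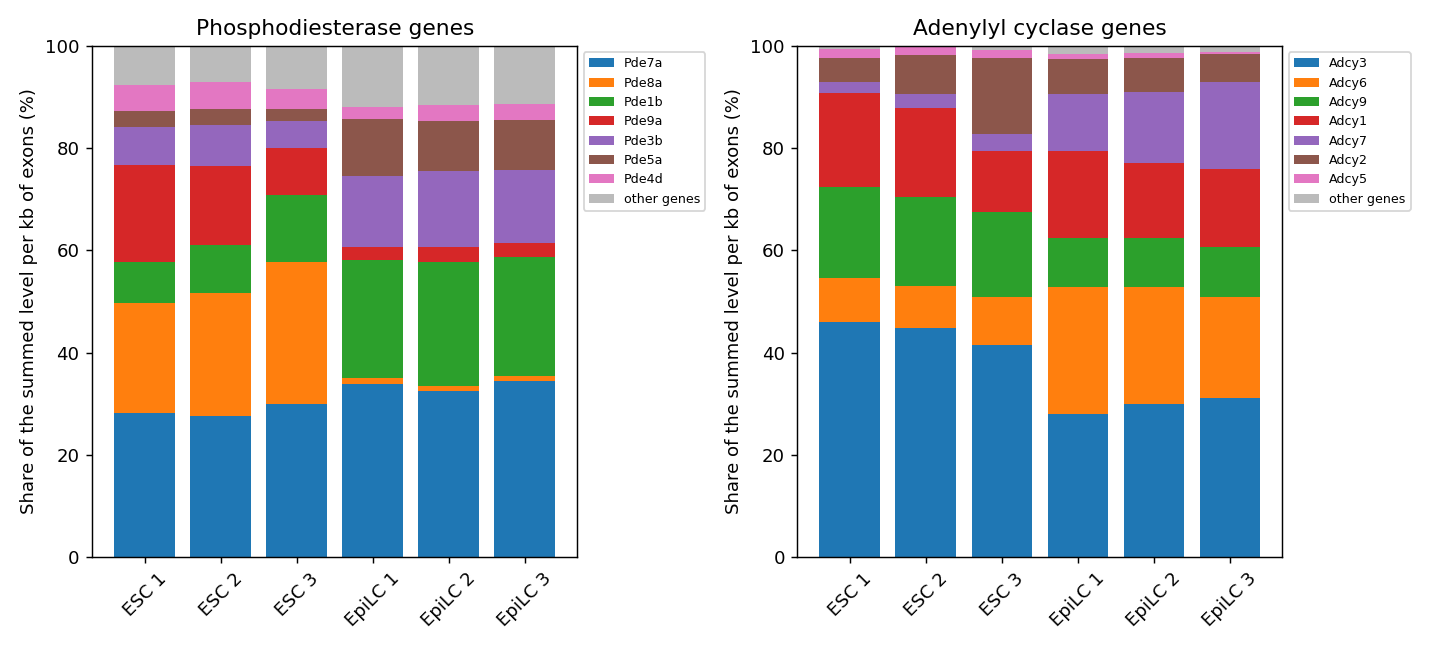
Share of the summed level per kb of exons (vertical axis, %) held by each phosphodiesterase gene without the small Pde6 subunits (left) and each adenylyl cyclase gene (right), with 1 bar per library. Pde8a takes 21.5% to 27.7% of each ESC bar and 0.87% to 1.05% of each EpiLC bar, and Pde1b, Pde3b and Pde5a widen in EpiLC.

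The members were more uneven among the ESC libraries than the counts of called genes show. ESC replicate 3 was the highest ESC library for 14 of the 24 tested members, the lowest for 9 and, for Adcy8, level with replicate 2 at 0. On the log2(CPM + 0.1) scale it lay at least 0.5 away from the mean of replicates 1 and 2 for 12 members, while replicates 1 and 2 lay that far apart for 3. It was off in the direction of the EpiLC level for 11 of the 24 members. Adcy2 (1.53), Pde4a (1.11), Pde10a (0.85), Adcy7 (0.83), Pde3a (0.78) and Pde1b (0.77) were furthest up in replicate 3, and Pde1c (-1.19), Pde11a (-0.74), Pde9a (-0.71), Pde8b (-0.63) and Pde4b (-0.57) furthest down. Some of these differences rest on few counts. In ESC replicates 1 to 3, Pde1c had 5, 9 and 1 counts, Pde3a 8, 2 and 5, and Pde4b 1, 1 and 0. Adcy8, also among the 12 members, had 2, 0 and 0. The summed naive markers of replicate 3 stood at 2580 CPM, against 2440 and 2407 CPM in replicates 1 and 2. The members of that list went both ways: Tfcp2l1 was at 1307 CPM against 999 and 922 CPM, and Esrrb at 367 CPM against 518 and 524 CPM. The 4 shared pluripotency markers summed to 1659 CPM in replicate 3 and to 2120 and 2117 CPM in replicates 1 and 2. Without this library 17 members other than Pde4b were called higher and 2 lower, while over all genes the calls went from 4794 to 5815 higher and from 4891 to 5916 lower.

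**Figure D4:**
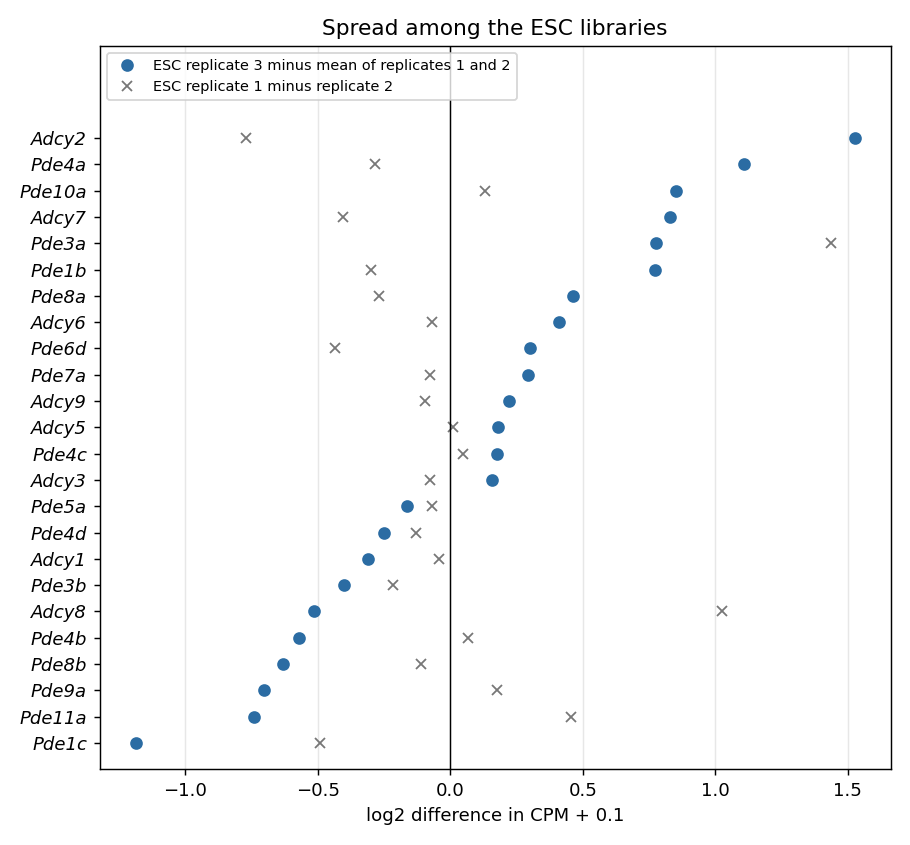
Difference between ESC libraries for each tested gene on the log2(CPM + 0.1) scale: replicate 3 minus the mean of replicates 1 and 2 (filled points) and replicate 1 minus replicate 2 (crosses). The points run from -1.19 (Pde1c) to 1.53 (Adcy2), and the crosses lie closer to 0 for most genes.

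The rest of the pathway was read from 10 lists with 141 symbols, of which 140 were matched and 91 were tested. Of these, 42 were called higher and 21 lower in EpiLC by edgeR (32.0% and 32.6% of all tested genes), and 28 were not called. Of the 91, 10 passed the filter through EpiLC alone and could only be higher, and 1 passed through ESC alone and could only be lower. The lists were written with earlier results of these data known.

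Upstream of the cyclases stand receptors and G proteins. Of 41 receptor genes coupled to Gs, with the RAMP partners, 14 were tested. Of the 14, 9 were higher and 1 lower, where 32.0% and 32.6% of all tested genes were. Of the 9, Calcr, Pth1r, Calcrl and Adora2a passed the filter through EpiLC alone and could only be higher. Without a filter on low counts 15 of the list were called higher and 3 lower. The calcitonin receptor gene Calcr rose from 0.156, 0.135 and 0.087 CPM to 7.73, 5.90 and 6.07 CPM (log2 fold change 5.54 with SE 0.30, edgeR adjusted p = 1.27e-06). Pth1r, the parathyroid hormone receptor gene, rose from a mean of 0.499 to 8.41 CPM, and Calcrl, the gene of the receptor for CGRP and adrenomedullin, from 0.170 to 2.83 CPM. Of the 7 alpha subunit genes, 5 were higher and 2 lower, where 32.0% and 32.6% of all tested genes were. Gnas, which encodes the stimulatory Gs alpha, rose 2.08-fold from 163, 159 and 165 CPM to 354, 323 and 338 CPM (adjusted p = 2.40e-06), though 13.1% of its exon length overlaps the gene model Gm20721 and 8.83% overlaps Nespas, both on the opposite strand. Gnao1, of the inhibitory class, rose 15.5-fold to a mean of 17.8 CPM. Gnal, the olfactory stimulatory subunit gene, was at 2.96, 3.92 and 14.0 CPM in ESC and 1.10, 1.63 and 1.16 CPM in EpiLC (log2 fold change -2.27, adjusted p = 0.0249). Without ESC replicate 3 that value was -1.41. Of the exon length of Gnal, 7.63% overlaps Mppe1 on the opposite strand. Mppe1 stood at means of 11.8 CPM in ESC and 3.44 CPM in EpiLC. The part of Mppe1 reads in the Gnal values was not tested. The call of Gnal was lost without any single EpiLC library, with adjusted p = 0.0801, 0.0640 and 0.0764 without replicates 1, 2 and 3, and the count of 2 lower was then 1, 0 and 1.

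On the cGMP side, 4 of 5 tested guanylyl cyclase genes were higher and 0 lower by edgeR, where 32.0% and 32.6% of all tested genes were, and 0 were lower also at an unadjusted p under 0.05, by DESeq2 and by limma-voom. Gucy1a1 and Gucy1b1, which encode subunits of the nitric oxide receptor, passed the filter through EpiLC alone and could only be higher. Gucy1a1 went from 2 counts over the ESC libraries to 111 over the EpiLC libraries (ratio 89.4 with a 95% interval of 24.2 to 748), and Gucy1b1 went from 0.571, 0.225 and 0.174 CPM to 4.92, 5.99 and 3.84 CPM (log2 fold change 3.82 with SE 0.36, edgeR adjusted p = 4.04e-05). Leaving out ESC replicate 2 moved the fitted log2 value of Gucy1a1 from 6.18 to 5.49, and leaving out ESC replicate 1 moved that of Gucy1b1 to 4.49. Gucy1a2, the gene of another subunit of that receptor, stood at means of 9.11 and 12.0 CPM, overlapped between the groups and was not called with all libraries, and was called higher without ESC replicate 3 (log2 fold change 0.68). Npr2, a natriuretic peptide receptor gene, overlapped between the groups at means of 2.29 and 4.005 CPM (edgeR adjusted p = 0.0394). That call was lost without any single library other than ESC replicate 3 (edgeR adjusted p from 0.0572 to 0.150). It was lost too with DESeq2 (adjusted p = 0.0608) and with the replicate block in edgeR (adjusted p = 0.0501). The count of 4 higher was 3 in each of these fits.

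Downstream, the receivers of cAMP and cGMP moved in both directions. Of 9 tested genes of protein kinase A and its inhibitors, 4 were higher and 2 lower, where 32.0% and 32.6% of all tested genes were. The regulatory subunit gene Prkar2b rose 7.65-fold, from 3.995, 4.06 and 3.66 CPM to 30.9, 29.9 and 29.6 CPM, and Pkia, the gene of a peptide inhibitor of the kinase, rose 10.1-fold, from 2.18, 1.58 and 1.39 CPM to 18.3, 17.7 and 17.1 CPM. The related kinase gene Prkx rose 1.96-fold. Prkaca, the main catalytic subunit gene, was at 64.1, 65.1 and 101 CPM in ESC and 73.2, 74.8 and 76.7 CPM in EpiLC and was not called (log2 fold change -0.03, interval -0.42 to 0.36). Without ESC replicate 3 the sign turned and it was called higher (log2 fold change 0.20, edgeR adjusted p = 0.00389, from 0.00389 to 0.984 over the alternatives).

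Of 11 other effector genes tested, 5 were higher and 4 lower, where 32.0% and 32.6% of all tested genes were. Rapgef3, which encodes the cAMP sensor EPAC1, fell 13.0-fold from 13.7, 13.4 and 8.19 CPM to 1.004, 0.684 and 1.07 CPM (log2 fold change -3.70 with SE 0.31, edgeR adjusted p = 1.97e-05). Prkg1, which encodes a cGMP-dependent kinase, rose from a mean of 0.106 to 2.43 CPM, having passed the filter through EpiLC alone. Without ESC replicate 2 the log2 fold change of Prkg1 was 5.0 in place of 4.31. The anchoring proteins of protein kinase A were divided too. Of 12 tested, 3 rose and 3 fell (32.0% and 32.6% of all tested genes), and 6 were not called. Without ESC replicate 3, 5 fell, Akap10 and Akap12 among them. Akap1, which anchors the kinase at mitochondria, fell 2.92-fold to 89.9 CPM, and Akap2 fell 3.49-fold to 6.27 CPM, with 84.4% of its exon length shared with the gene model Pakap on the same strand. Pakap itself was at 0 CPM in each library. How reads shared by both gene models were counted is not given, so the level of Akap2 cannot be judged. Akap13 rose 1.71-fold to 101 CPM, and Akap12, the most abundant of the anchoring proteins in CPM, was not called with all libraries (1419 and 1359 CPM).

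Of the 8 CREB family and coactivator genes, 5 were higher and 1 lower, where 32.0% and 32.6% of all tested genes were. The 1 lower gene, Crem, named after its values were seen (11.7 and 9.53 CPM, edgeR adjusted p = 0.0471), was not called without any single library other than ESC replicate 3. The coactivator genes Ep300, Crtc3 and Crtc1 rose 2.09-fold, 2.02-fold and 1.98-fold. Genes that cAMP is known to induce through CREB were divided. Of 10 tested, 3 rose and 2 fell (32.0% and 32.6% of all tested genes), and 5 were not called. Rgs2, which passed the filter through EpiLC alone, rose 16.1-fold from a mean of 0.235 CPM, and Bdnf rose 4.71-fold to 7.95 CPM. Sik1, a kinase gene that restrains CREB coactivators, fell 3.10-fold, from 117, 114 and 127 CPM to 37.9, 38.5 and 39.3 CPM. Nr4a1 (12.9 and 13.9 CPM), Per1 (10.2 and 13.6 CPM) and Dusp1 (13.8 and 18.9 CPM) were not called. Per1 was called higher without ESC replicate 3 (log2 fold change 0.63), with both other scalings and by limma-voom, and Dusp1 was called higher without ESC replicate 1 (log2 fold change 0.58) and with the replicate block.

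Both tested exporters of cyclic nucleotides were called, where 64.6% of all tested genes were. Abcc4 was higher (1.36-fold, to 112 CPM) and Abcc5 lower (2.15-fold, to 79.3 CPM). Among 13 tested partners of phosphodiesterases, 3 were higher and 5 lower, where 32.0% and 32.6% of all tested genes were. The 5 became 7 without ESC replicate 3, 2 or 3 without any other single library, and 3 with either other scaling. Arrb1, which encodes a beta-arrestin that brings PDE4 to receptors, rose 5.96-fold from 14.9, 15.5 and 15.9 CPM to 94.1, 94.8 and 86.1 CPM (adjusted p = 1.21e-07 by edgeR), while Arrb2 (39.2 and 39.1 CPM) was not called. Arl3, a small GTPase gene whose product releases cargo from the Pde6d protein, fell 2.42-fold to 15.4 CPM, and the related gene Arl2 rose 1.44-fold to 37.5 CPM.

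**Figure D5:**
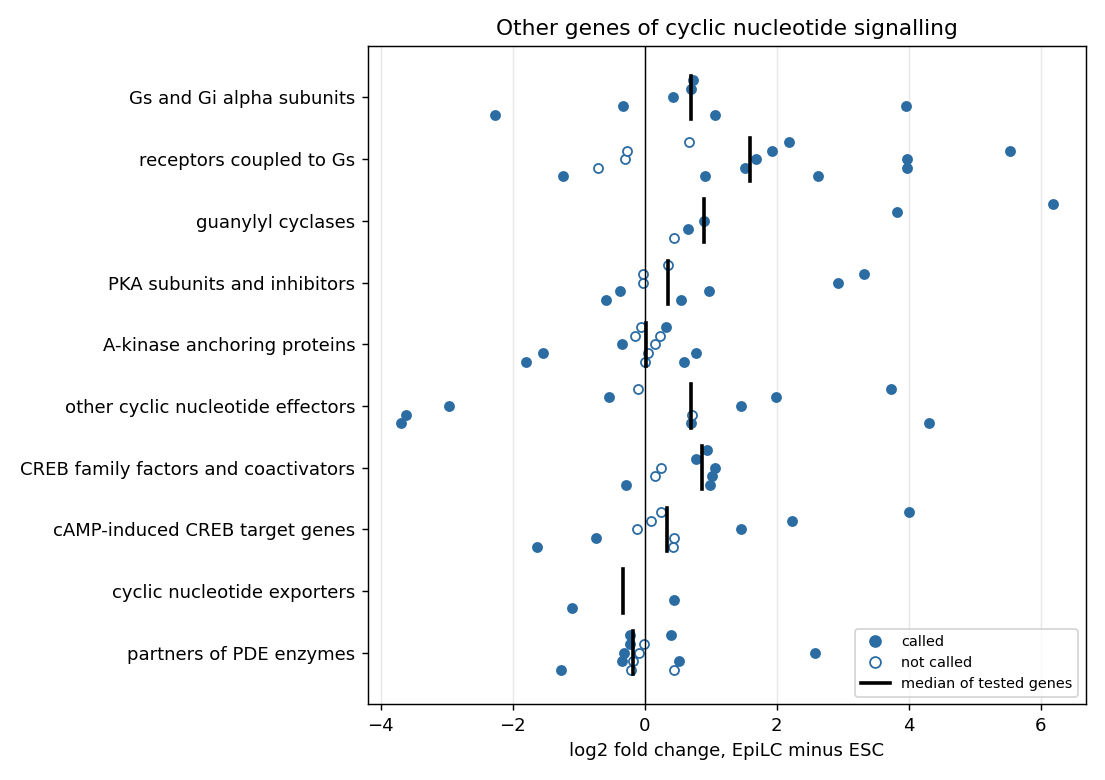
Log2 fold change (EpiLC minus ESC, horizontal axis) of each tested gene in the 10 pathway lists, filled where called and open where not, with the median of each list's tested genes as a black bar. The vertical offset within a list only separates the points. The anchoring proteins lie around 0 (median 0.02), and the other effectors run from -3.70 (Rapgef3) to 4.31 (Prkg1).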

How the data were processed

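The authors deposited raw read counts per Ensembl gene, whole numbers in a column per library. Per the submitters' processing notes, cutadapt, STAR, featureCounts and DESeq2 were used with build mm10. Not given in the sources used here were the versions, the annotation, the treatment of reads with several hits and whether strand was used in counting. Per the labels' protocols, RNA was depleted of ribosomal RNA and about 100 ng entered a stranded library kit.

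Of 51918 rows, 92 spike-in rows held 0 counts and were left out, and 51633 of 51826 gene rows were matched to a symbol in GENCODE release M21 (GRCm38). Members were found by symbol. Counts were tested with edgeR 4.0.16 in R 4.3.3 (quasi-likelihood, TMM scaling, filterByExpr with 10 counts per library and 15 in total, group as the single term). Tests were two-sided, with Benjamini-Hochberg adjustment over all genes tested and calls at an adjusted p under 0.05. The SE of a log2 fold change was its absolute value divided by the square root of edgeR's F statistic. Its interval was built from that SE and the t distribution, so both are approximations derived from the test. Levels are CPM on TMM-scaled totals. The biological coefficient of variation was 12.5%. Intervals and limits from counts cover counting error only. The code was tested on simulated data. Alternatives were DESeq2 1.42.0, limma-voom (limma 3.58.1), 2 other scalings, 2 other filters, the replicate block and leaving out each library.

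Named genes were all tested members and, per pathway list, the called genes with the largest change, up to 3, whose mean in the higher group reached 1 CPM (as it did for each tested member). Uncalled genes at 10 CPM or more could be given as values. Genes outside this rule serve only as overlaps or markers. The members and lists were chosen with earlier results of these data known. Of the genes this rule takes, some are not reported here.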

Additional observations from a re-analysis of the deposited data

How the results depend on the processing

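Of the 23 tested members other than Pde4b, 18 kept their call or lack of call in all 13 alternatives; the others were Adcy2, Adcy3, Pde4a, Pde6d and Pde11a. The members called higher were 13 to 17 in number and those called lower 2 or 3 over the alternatives, and the counts over all genes and over the 10 pathway lists summed stayed within 1.5 times. Counts of single lists moved further: receptors from 9 to 15 higher and 1 to 3 lower and CREB targets from 3 to 5 higher with no filter, receptors to 2 lower with the replicate block, and anchoring proteins, partners, alpha subunits and the CREB family as given beside them. The count of lower alpha subunits was also 1 with limma-voom, and that of the CREB family 0 also with both other scalings, DESeq2 and the replicate block. The log2 fold change of Prkaca turned from -0.03 to 0.20 without ESC replicate 3, the highest of the values with 1 library left out, the lowest being -0.16. The cause of these changes was not tested. With the longest transcript as length, the EpiLC shares of the phosphodiesterase sum were 48.0% for cAMP-specific genes and 39.2% for genes of both nucleotides. Without division by length, the EpiLC shares were 47.5% (cAMP-specific), 14.4% (cGMP-specific) and 38.1% (both), and the ESC share of the last was 20.9%.

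Same-numbered ESC and EpiLC libraries did not deviate together (r = -0.09, -0.01 and -0.15 for replicates 1, 2 and 3, across genes). Libraries with different numbers gave r from -0.13 to 0.14. With 3 libraries per group, these values cannot tell whether libraries of the same number shared a culture or a preparation. With the replicate block, 14 members were called higher and 2 lower, and the adjusted p of Adcy3 was 0.0643. Counts limit what can be said of the 10 untested members, none above 0.602 CPM in any library.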
